A study of Mus musculus with 20 samples.

Results

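The genes described here are named for factors that start and carry out protein synthesis, and include some that modify or inhibit those factors. They were every gene in the table of gene counts whose symbol begins with Eif (eukaryotic initiation factor) or Eef (eukaryotic elongation factor). Left out were processed pseudogenes and most genes of the Eif4 group, which includes the cap-binding machinery (Eif4a1, Eif4a2, Eif4a3, Eif4b, Eif4e, Eif4e2, Eif4g1, Eif4g2, Eif4g3, Eif4h and the Eif4ebp genes). Eif4e3 and Eif4enif1 were kept. This rule gave 50 of the 14924 genes in the table, of which 40 were Eif genes and 10 were Eef genes. All 50 passed the filter on low counts.

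The data came from NSC-34, a mouse motor neuron-like cell line, in which human HuD (the product of ELAVL4, a neuronal RNA-binding protein) was produced from a tetracycline-inducible construct. HuD binding was mapped by CRAC, in which tagged HuD is cross-linked to RNA and purified, in 3 HuD and 3 control samples. By the labels and methods the cells of both CRAC groups received 10 μg/ml tetracycline for 24 h, whereas the results text of the study names doxycycline with the dose and time of the RNA-Seq cells. The CRAC control cells were Trex cells, which carry the tetracycline repressor but no HuD transgene. Total RNA (RNA-Seq) and polysomal RNA (POL-Seq) were sequenced in 2 HuD and 2 control samples each, and mRNA 3′ ends in 3 HuD and 3 control samples, with HuD induced by 2 μg/ml tetracycline for 48 h. For these libraries the labels call the controls only control, and do not say whether they were Trex cells or HuD cells without tetracycline, or whether they received tetracycline. The HuD transgene was His-HA tagged and delivered by a lentiviral vector, and the methods describe an inducible HuD line without saying whether it was a single clone. The RNA-Seq and POL-Seq libraries held 21296012 to 36284728 counts, the lowest being the polysomal control replicate 2, and the 3′ end libraries held 12986862 to 15751036. Mouse Elavl4, whose counts may hold reads from the human transgene, was higher in both HuD libraries of total RNA, at 237 and 212 CPM (counts scaled by TMM to a common library size) against 78.3 and 97.4 in control cells, but did not pass the test across all genes (log2 change 1.35, SE 0.15, n = 2 per group, Benjamini-Hochberg adjusted p = 0.0866 in edgeR's quasi-likelihood test). In polysomal RNA it had 243 and 225 CPM against 90.3 and 118 (log2 change 1.17, adjusted p = 0.282 in edgeR). In the 3′ end libraries, at the ends of the mouse gene, it had 54.6, 31.4 and 52.4 CPM with HuD and 78.1, 38.5 and 78.1 without (log2 change -0.49, adjusted p = 0.922 in edgeR). Those ends are not part of the human coding sequence, so this count checks nothing about the labels of the 3′ end libraries. Of the motor neuron markers Chat, Slc18a3, Mnx1, Isl1 and Isl2, 4 were in the table and summed to 54.3 to 60.1 CPM in control total RNA, with Chat at 0.53 and 0.51. The neuron markers Tubb3, Nefl, Nefm, Map2 and Stmn2 summed to 878 to 933 CPM (with Stmn2 at 0.30 and 0.31), while of the astrocyte markers only Gfap was listed, at 0.63 and 0.51 CPM, and none of the microglia and blood markers was listed.

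Initiation begins when eIF2, carrying the initiator tRNA and GTP, joins the small ribosomal subunit together with eIF1, eIF1A, eIF3 and eIF5. The complex scans the mRNA to a start codon, where eIF5 promotes GTP hydrolysis by eIF2 and eIF5B then joins the large subunit. eIF2B reloads eIF2 with GTP, and 4 kinases that phosphorylate eIF2 under stress block this step. In elongation eEF1A delivers aminoacyl-tRNAs, the eEF1B subunits recharge eEF1A, and eEF2 moves the ribosome along the mRNA. The mRNAs of the eEF1 and eEF2 factors and of some eIF3 subunits belong to the TOP class, which carry a terminal oligopyrimidine tract at their 5′ end and are translated in response to growth signals.

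HuD CRAC windows were found on 8 of the 50 genes, 16.0% (95% Wilson interval 8.34 to 28.5%, counting error only), against 9.87% of all 12953 protein coding genes with counts, a value inside that interval. A window is a site of 7 or 8 nt around a cross-link deletion that the authors' scoring retained, and replicates had been pooled, so windows carry no replicate error. The 8 genes were Eef1a1 with 12 windows, Eif5 with 4, Eif2s3x with 3, Eif1ax with 2, and Eif1, Eif1b, Eif1a and Eif3e with 1 each. By role, 4 of the 5 genes of the eIF1 and eIF1A group carried a window, 1 of the 3 eIF2 subunits (Eif2s3x, the gamma subunit that binds GTP and the initiator tRNA), 1 of the 14 eIF3 genes, 1 of the 4 genes of the eIF5 group and 1 of the 2 eEF1A genes. None of the 5 eIF2B subunits, the 4 eIF2 kinases, the 3 eEF1B subunits or eEF2 carried one. Of the 25 windows, 24 lay in a 3′ UTR, and the window on Eif3e (an eIF3 subunit) lay in the coding sequence.

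Sites of 7 of the 8 genes, among them those with most reads or most deletions, are shown as the RNA strand of the GENCODE M21 transcripts (GRCm38), with 11 nt on either side, because they show which sequence HuD was cross-linked to. The capitals mark the window, and the site on Eif1a is not shown.
Eef1a1 with most deletions (chr9:78478570-78478576, minus strand, 3′ UTR): auguuguggacCAUUUUUuuugugugugg
Eef1a1 with most reads (chr9:78478551-78478557, minus strand, 3′ UTR): uuguguguggcAGUUUUAaguuauuaguu
Eef1a1 second in deletions (chr9:78478649-78478655, minus strand, 3′ UTR): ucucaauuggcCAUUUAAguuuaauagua
Eef1a1 with control reads (chr9:78478624-78478630, minus strand, 3′ UTR): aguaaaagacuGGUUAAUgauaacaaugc
Eif2s3x near the 3′ end (chrX:94188813-94188819, minus strand, 3′ UTR): guuuguuuguuUGUUUUUuuuuuuugagg
Eif2s3x with most deletions (chrX:94190686-94190692, minus strand, 3′ UTR): augugaccucuACUUUUUuuuuucuuuuu
Eif5 with most deletions (chr12:111545755-111545761, plus strand, 3′ UTR): aagacuugggaUAUUUUUuacuucacauu
Eif5 at a listed polyadenylation site (chr12:111544911-111544917, plus strand, 3′ UTR): aauaaagauuuGAUUUUGgucauucuuca
Eif1 (chr11:100321482-100321488, plus strand, 3′ UTR): auuugggguccGCUUUUAacuuggacuag
Eif1b (chr9:120495007-120495013, plus strand, 3′ UTR): uucucuaacucAGUUUGGcugccucggga
Eif1ax (chrX:159386532-159386538, plus strand, 3′ UTR): auuggaguauuGCUUUUUuuuuucaggag
Eif3e (chr15:43270894-43270900, minus strand, coding sequence): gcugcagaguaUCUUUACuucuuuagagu
Of the 24 windows with a sequence read here, 22 held UUU at their positions 3 to 5. The authors scored windows by a matrix built from such sites, so this triplet follows from how windows were chosen. The Eif2s3x and Eif1ax windows shown here sat inside longer U runs, and those on Eif1, Eif1b and Eif3e did not.

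Eef1a1, which encodes the main form of the aminoacyl-tRNA carrier eEF1A, held most of the CRAC signal. Summed over its 12 windows, coverage was 11322 in the HuD samples and 33 in the control samples, with 361 deletions. These are sums of window depths and not numbers of separate reads, because a read covering several windows counts once in each. The authors penalized locations with control reads before windows were listed. Low control coverage therefore follows in part from how windows were chosen, and is no separate measure of specificity. The Eef1a1 sum was the second highest of any protein coding gene and 96.4% of the 11744 summed over the 50 genes. With the deletions counted in place of coverage its share was 78.0%, and with the highest window of each gene in place of the sum it was 86.2%. The windows lay 20 to 217 nt from the annotated 3′ end of the gene, in a 3′ UTR of 285 nt. Coverage was of one order along this stretch, 600 to 1445 reads per window, whereas deletions were concentrated at 2 windows. CAUUUUU, 121 nt from the end, had 124 deletions on 1098 reads, and CAUUUAA, 200 nt from the end, had 88 on 1006, while no other window exceeded 30. The window AGUUUUA had the most reads, 1445, with 30 deletions. GGUUAAU was the only window with more than 1 control read, 29 against 610 in the HuD samples. Of the 12 windows, 4 formed 2 pairs that start 1 nt apart, so their reads were counted more than once in the sum. With overlapping or adjoining windows merged, which leaves reads shared by separate windows in the sum, the Eef1a1 share was 95.2%. Because Eef1a1 has many near-identical processed pseudogenes in the mouse genome, reads on it could have been split or shared. For reads that map to several places the methods state only that programs ran with default settings.

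**Figure D1:**
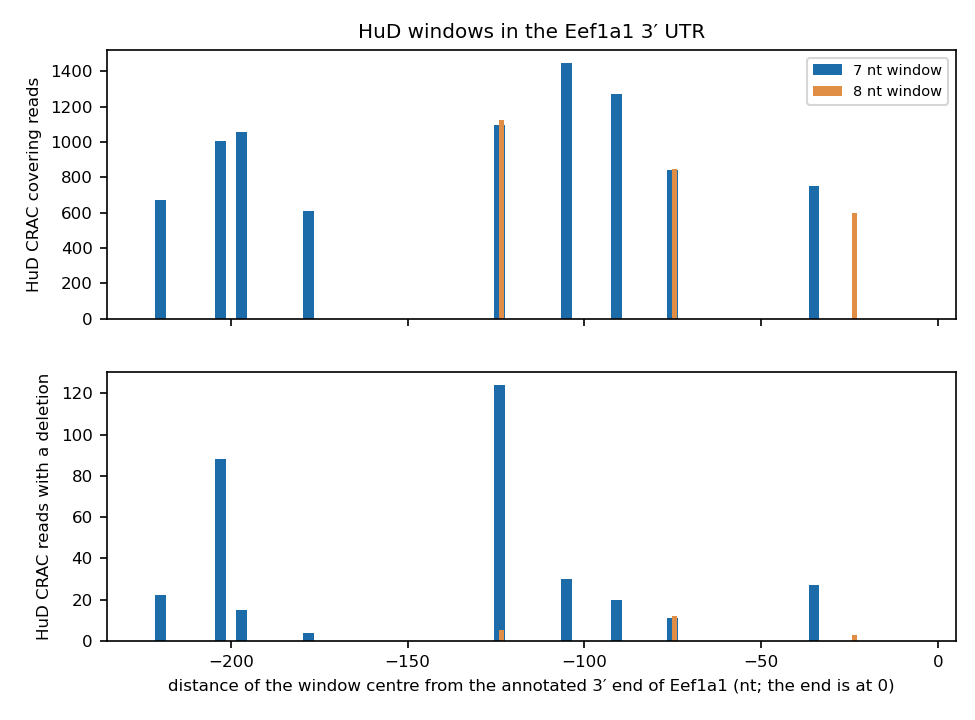
HuD CRAC windows in the Eef1a1 3′ UTR, with the distance of the window centre from the annotated 3′ end (nt) on the x axis and pooled HuD reads on the y axis, covering reads above and reads with a deletion below. Coverage stayed between 600 and 1445 reads over the 12 windows, and deletions peaked at 124 and 88 in 2 windows of 7 nt.

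Summed over windows in the same way, the other 7 genes together had a coverage of 422. None of their windows had a read in the control samples, an outcome that the authors' penalty on control reads favoured. Reads given below for a whole gene are such sums. Eif2s3x had 209 reads and 45 deletions over its 3 windows. One of them was 106 nt from the 3′ end of the gene (84 reads, 16 deletions), and the others were 1951 and 1979 nt from it (66 reads with 5 deletions, and 59 with 24). Eif5, whose product triggers GTP hydrolysis on eIF2, had 89 reads and 22 deletions. Its window GAUUUUG (15 reads, 6 deletions) ended 6 nt before the only 3′ end listed for the gene, and the other 3 windows lay downstream of that end, in the longer 3′ UTR. Eif1 (48 reads, 3 deletions) and Eif1b (26 reads, 8 deletions) encode near-identical forms of eIF1, which keeps the scanning ribosome open until a start codon is met. Eif1ax (25 reads, 10 deletions) and Eif1a (12 reads, 8 deletions) encode near-identical forms of eIF1A, its partner on the small subunit. Eif3e had 13 reads and 6 deletions. The median coverage of these 13 windows was 23.0 reads, against 26.0 for windows on all protein coding genes. Only Eef1a1 and Eif2s3x kept windows when those with a combined p-value of the authors of 0.05 or more were left out, which left 14 windows in all.

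Set against the amount of mRNA, the order of the targets changed. Reads were again summed over the windows of a gene, so a read covering several windows counts once in each. Eif2s3x had 2.60 CRAC reads per CPM of its mean level in total RNA of HuD cells and Eef1a1 had 1.79, which placed them at ranks 111 and 162 of 1279 targets. The median target had 0.295. Eif5 was also above it, at 0.429, while Eif1b (0.22), Eif1a (0.121), Eif1 (0.108), Eif1ax (0.0784) and Eif3e (0.061) were below. With the deletions in place of the reads Eef1a1 lay below the median target, at 0.057 against 0.0747 deletions per CPM, Eif2s3x (0.561), Eif5 (0.106) and Eif1a (0.0809) lay above it, and the other 4 genes lay below. These ratios join different cultures, and the sources differ on whether the CRAC and RNA-Seq cells were induced alike.

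The longest annotated 3′ UTR of the 8 bound genes ranged from 141 nt (Eif3e) to 4515 nt (Eif1ax) with a median of 1406 nt, and that of the 42 unbound genes from 65 nt (Eif3m) to 4500 nt (Eif3j1) with a median of 890 nt. The tetramers AUUU, CUUU and GUUU, found in most of the windows above and counted here as cores, were more frequent in the bound group, with a median of 3.00 per 100 nt against 1.79 in the unbound group. Other protein coding genes showed the same order, with medians of 2.86 in 1258 bound genes and 1.97 in 11512 unbound ones. Windows were scored by a matrix rich in such cores, so their density is not independent of the calling of windows. Eef1a2, the neuronal and muscle form of eEF1A, had no window and 0.613 cores per 100 nt in a 3′ UTR of 326 nt, whereas Eef1a1 had 3.16. Eif3a, the scaffold subunit of eIF3, had no window with the highest density of the 50 genes, 3.84 per 100 nt.

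**Figure D2:**
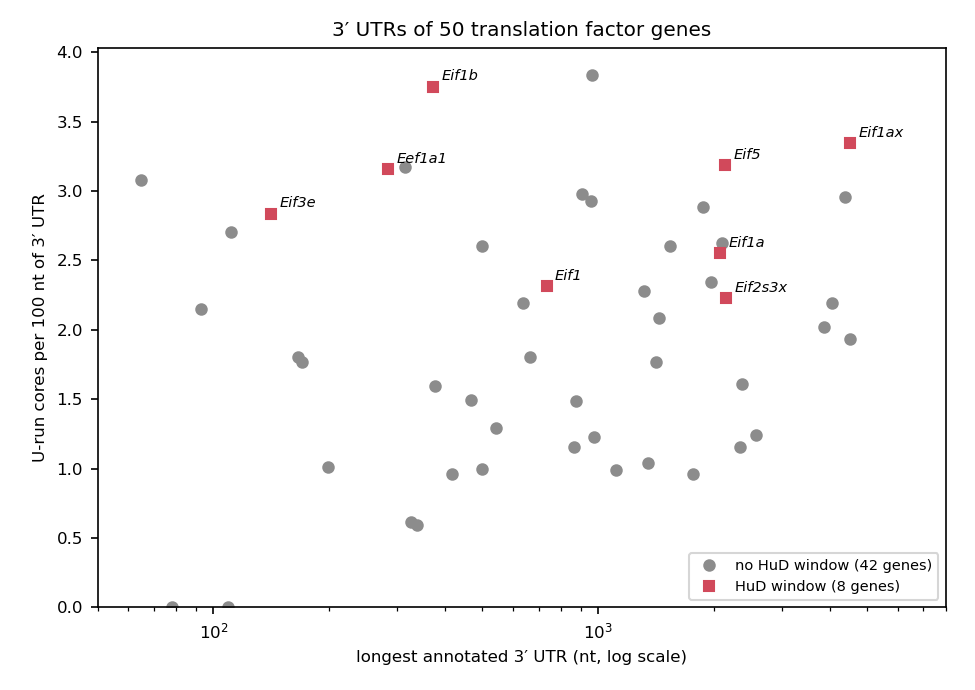
Longest annotated 3′ UTR (nt, log scale) on the x axis against the number of AUUU, CUUU and GUUU cores per 100 nt of it on the y axis, for the 8 genes with a HuD window (squares, named) and the 42 without (circles). The 3′ UTRs of bound genes ranged from 141 to 4515 nt, and their densities lay between 2.23 (Eif2s3x) and 3.75 (Eif1b) cores per 100 nt.

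Levels were compared per length, as FPKM (CPM divided by the merged exon length in kilobases) in the 2 control libraries of total RNA. The 50 mRNAs spanned 2.60 to 2483 FPKM with a median of 34.6, against 5.57 for all 14842 genes with an exon length, and 44 of them lay above that median. Eef1a1 was the most abundant, at 2506 and 2461 FPKM, and alone held 35.4% of the FPKM summed over the 50 genes. It was followed by Eef2, the translocase (796 and 663 FPKM), and Eif5a, a factor with a hypusine residue that helps ribosomes past difficult peptide bonds (680 and 702 FPKM), and the libraries of these 2 overlapped. The lowest were Eef2kmt, a lysine methyltransferase of eEF2 (4.41 and 3.28 FPKM), Eif2d, which can bring tRNA to the ribosome without eIF2 (3.98 and 3.62 FPKM), and Eif3j1 (2.53 and 2.66 FPKM). Eef2kmt and Eif2d overlapped, and Eif3j1 lay below both in each library. The FPKM order depends on the merged exon length, which takes in all annotated transcripts of a gene. Eif2d, with 7374 nt, had a mean of 28.0 CPM in control total RNA, above Eif5a2 with 25.3. Eif3j1 and Eif3j2 (5.12 and 5.53 FPKM), Eif1 and Eif1b, and Eif1a and Eif1ax are pairs of close relatives, and Eef1a1 has near-identical pseudogenes. Within the pairs the longest annotated 3′ UTRs differ in length (4500 and 1537 nt, 735 and 373 nt, 2077 and 4515 nt). The levels of all these genes are uncertain only where reads could not be assigned to a single copy. In the order of the 50 levels, 26 of the 49 neighbouring pairs did not overlap between their 2 libraries.

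By role, the levels were 185 to 2483 FPKM for the eEF1A genes, 730 for eEF2 and 40.2 to 272 for the eEF1B subunits. The other 4 genes with Eef symbols (Eef1e1, Eef2k, Eef2kmt and Eefsec) had 3.84 to 23.6 FPKM. The 14 eIF3 genes had a median of 84.0 FPKM, from Eif3h at 264 down to Eif3j1. Apart from Eif3j1 and Eif3j2, the lowest eIF3 gene by FPKM was Eif3a with 29.8, over a merged exon length of 8731 nt. By mean CPM in control total RNA Eif3a, at 260, was not the lowest of these, and Eif3m had 126. The 3 eIF2 subunits lay close together, at 43.6 (Eif2s1), 25.4 (Eif2s2) and 21.6 FPKM (Eif2s3x). The 5 subunits of eIF2B, which works as a single complex, ranged from 4.55 (Eif2b3) to 86.2 FPKM (Eif2b2). Their merged exon lengths differed, with 6520 nt for Eif2b3 and 1885 nt for Eif2b2. Mean CPM in control total RNA ranged from 29.7 (Eif2b3) to 184 (Eif2b5). The 4 eIF2 kinases were low, with 18.4 FPKM for Eif2ak1 (HRI, activated by heme shortage), 8.31 for Eif2ak2 (PKR, double-stranded RNA), 7.95 for Eif2ak3 (PERK, unfolded protein) and 7.26 for Eif2ak4 (GCN2, amino acid shortage).

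**Figure D3:**
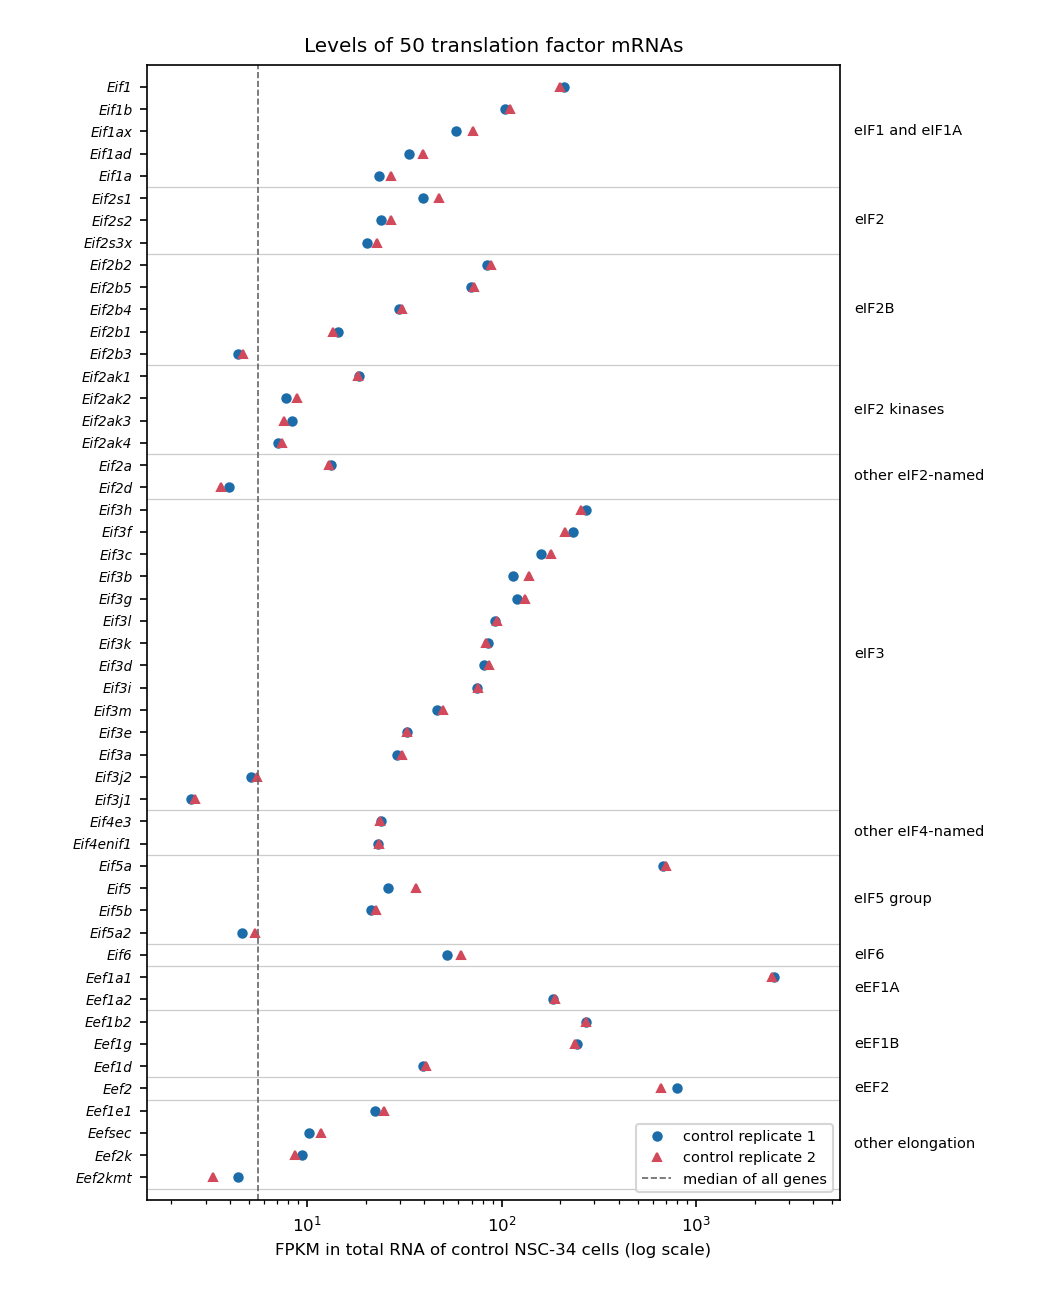
FPKM in total RNA of control cells (log x axis) for the 50 mRNAs grouped by role, with circles for control replicate 1 and triangles for replicate 2, and the dashed line at the median of all genes (5.57). Eef1a1, Eef2 and Eif5a had the highest levels, and 44 of the 50 mRNAs lay to the right of the line.

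Polysomal RNA was then set against total RNA within control cells, a measure of how much of an mRNA sits on polysomes compared with the average mRNA. No gene of the 50 passed at an adjusted p under 0.05, against 0.174% of all 14906 genes tested, all of which were lower in polysomes (edgeR quasi-likelihood test, Benjamini-Hochberg). At an unadjusted p under 0.05, 2 of the 50 were higher (4.45% of all genes were) and 1 was lower (6.25% of all genes were), and DESeq2 gave 0 at an adjusted p under 0.05 and 4 higher and 1 lower unadjusted. The fitted log2 ratios of the 50 ran from -0.25 to 0.34 with a median of 0.06, and that of all genes was 0.01. The libraries did not overlap for 11 genes in the higher direction (18.9% of all genes) and for 5 in the lower one (20.1%).

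Among the higher ratios without overlap, the smallest p belonged to Eif5b and Eif3a. Eif5b, the GTPase that joins the subunits, had 231 and 304 CPM in polysomes and 208 and 221 in total RNA (log2 ratio 0.32, SE 0.13, edgeR adjusted p = 0.462). Eif3a had 267 and 391 CPM against 253 and 267 (log2 ratio 0.34, SE 0.15, edgeR adjusted p = 0.465). In both the polysomal libraries lay above the total RNA libraries, and without the polysomal control replicate 2 the log2 ratios were 0.101 for Eif5b and 0.034 for Eif3a. Eif2s3x (0.19), Eif4e3 (0.17), a member of the cap-binding eIF4E family, and Eif3j2 (0.33) were the next genes without overlap, with adjusted p of 0.465, 0.475 and 0.489 in edgeR. Without that library Eif4e3 was at 0.072 and Eif3j2 at 0.074, and without the total RNA control replicate 1 Eif2s3x was at 0.107. All 3 eIF2 subunits (0.19 to 0.30), all 4 genes of the eIF5 group (0.03 to 0.32) and all 4 eIF2 kinases (0.11 to 0.22) had a positive fitted log2 ratio. So had 33 of the 50 genes and 7699 of all 14906. Of the genes in these 3 roles only Eif5b had an unadjusted p under 0.05 in edgeR. Eif5a was at -0.037 in pair 2, and Eif2ak1 at 0.026 in pair 1 and 0.203 in pair 2.

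In the lower direction 5 genes had no overlap, of which Eef1a1, Eef1b2 and Eif3f belong to the TOP list. Eef1b2, the exchange subunit for eEF1A, had 555 and 602 CPM in polysomes and 684 and 691 in total RNA (log2 ratio -0.25, SE 0.11, edgeR adjusted p = 0.462), and both polysomal libraries lay below both total RNA libraries. The same was true of Eif3f (592 and 527 against 674 and 614 CPM, log2 ratio -0.20), Eif1b (115 and 98.1 against 117 and 124 CPM, -0.18), Eif3k (217 and 201 against 230 and 224 CPM, -0.12) and Eef1a1 (5635 and 5875 against 6248 and 6134 CPM, -0.11), with edgeR adjusted p of 0.473 to 0.708. Without the polysomal control replicate 2 the log2 ratios of Eif1b, Eif3k and Eif3f were -0.080, -0.068 and -0.129, and without the total RNA control replicate 1 that of Eif3f was -0.132. Of the 8 TOP mRNAs (Eef1a1, Eef1b2, Eef1d, Eef1g, Eef2, Eif3e, Eif3f and Eif3h), 6 had a negative log2 ratio, with a median of -0.09, whereas the other 42 genes had a median of 0.11. Over all genes 7207 of 14906 had a negative log2 ratio. The TOP median was -0.15 in pair 1 and -0.02 in pair 2, and that of the others 0.06 and 0.15, so the order was the same in both pairs of libraries and the values were not. This is a description of a list and was not tested.

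**Figure D4:**
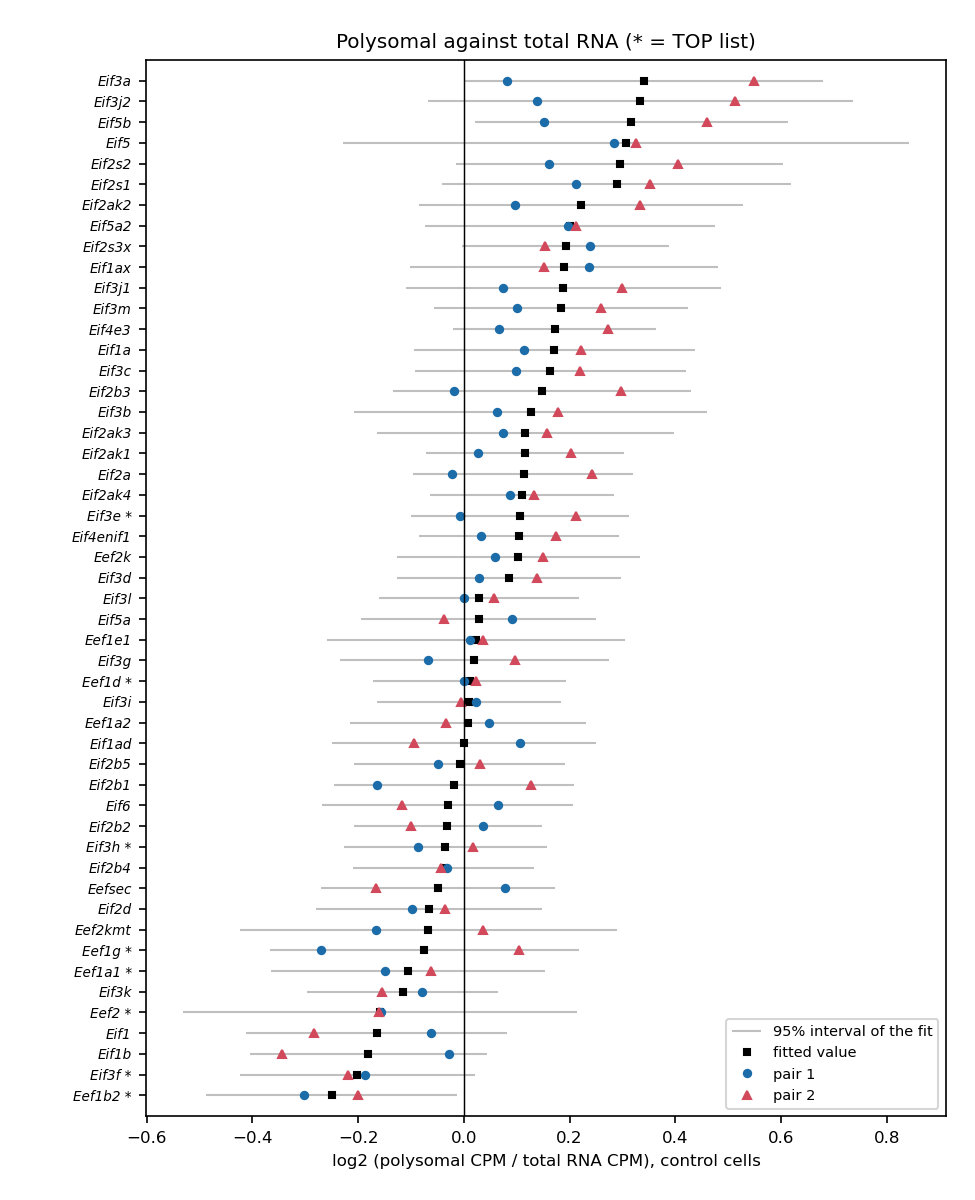
Log2 ratio of polysomal to total RNA CPM in control cells for the 50 mRNAs, ordered by the fitted value (squares, with its 95% interval), with circles and triangles for the same-numbered libraries of pair 1 and pair 2. The TOP mRNAs (marked by asterisks) lay mostly in the lower part, and for many of the upper genes pair 2 lay to the right of pair 1.

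These ratios rested in part on the polysomal control replicate 2, the library with the fewest counts. In polysomal control RNA the median of the 50 genes was 0.15 higher on the log2 scale in replicate 2 than in replicate 1, against 0.05 to 0.06 in the other 3 groups, while over all genes it was 0.00 in polysomal control RNA. Without that library 0 of the 50 genes were higher at an unadjusted p under 0.05 (1.06% of all genes), 2 were lower (3.98% of all genes) and the median log2 ratio was -0.01. Without the polysomal control replicate 1, so that replicate 2 stood alone and was assumed to vary like the other groups, 8 of the 50 genes passed at an adjusted p under 0.05 in edgeR, as did 2145 of all genes (14.4%). Eif3a, Eif5b, Eif2s2, Eif2ak2, Eif2s1, Eif3j2 and Eif2b3 were higher and Eif1 was lower (log2 ratio -0.323), named here after their values were seen. Which of the 2 libraries is closer to these cells cannot be told apart with 2 replicates.

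The effect of HuD was first measured in total RNA. No translation factor mRNA passed at an adjusted p under 0.05, nor did any other gene (0.0% of 14906, edgeR quasi-likelihood test, Benjamini-Hochberg), and DESeq2 called none of the 50 either. At an unadjusted p under 0.05, 0 were higher (1.78% of all genes) and 1 was lower (0.865% of all genes), and DESeq2 also gave 0 and 1. The lower gene was Eif2d in edgeR and Eif5a in DESeq2. The fitted log2 changes of the 50 ran from -0.22 to 0.16, with 38 negative and 12 positive and a median of -0.03 against 0.00 for all genes. The outermost bounds of their 95% intervals were -0.57 and 0.50. Without the total RNA control replicate 2 the median was 0.002. The HuD and control libraries did not overlap for 2 genes in the higher direction (15.1% of all genes) and for 12 in the lower one (16.7%).

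The mRNA with the smallest p was Eif2d. It had 23.2 and 24.7 CPM with HuD and 29.3 and 26.7 in control cells (log2 change -0.22, SE 0.09, n = 2 per group, edgeR adjusted p = 1.00). Both HuD libraries lay below both control libraries. Eif5a had 1372 and 1472 CPM with HuD and 1615 and 1670 without (log2 change -0.21, SE 0.10, edgeR adjusted p = 1.00), also without overlap. Eif2ak1 (-0.14), Eif3i (-0.12) and Eif2b2 (-0.08) followed in that direction. In the other direction Eif3c (661 and 663 CPM with HuD, 558 and 629 without, log2 change 0.16, SE 0.11) and Eif3a (269 and 280 against 253 and 267 CPM, 0.08) were the only genes without overlap. Without the total RNA control replicate 1 these changes were 0.075 and 0.039, and that of Eif2b2 was -0.045 without control replicate 2 and -0.049 without HuD replicate 2. None of these differences passed the test across all genes, and DESeq2 called 1 gene in all, which was none of the 50.

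In polysomal RNA the picture was the same in that no gene of the 50 and none of all 14906 (0.0%) passed at an adjusted p under 0.05 in edgeR, and DESeq2 called none of the 50 and 3 genes in all. At an unadjusted p under 0.05, 0 of the 50 were higher (2.29% of all genes) and 1 was lower (1.89%), and DESeq2 gave 0 in each direction. The log2 changes ran from -0.29 to 0.16, with 37 negative and 13 positive and a median of -0.07 against -0.01 for all genes. The libraries did not overlap for 1 gene in the higher direction (14.1% of all genes) and 10 in the lower one (14.6%).

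Eif2b3, the gamma subunit of eIF2B, had the smallest p, with 26.5 and 27.4 CPM with HuD and 28.5 and 37.5 in control cells (log2 change -0.29, SE 0.13, n = 2 per group, edgeR adjusted p = 0.969). The HuD libraries lay just below control replicate 1 and far below control replicate 2. The next genes without overlap were Eif2ak4 (52.3 and 53.8 against 56.3 and 60.6 CPM, log2 change -0.14), Eif3e (214 and 210 against 218 and 254 CPM, -0.15), Eif2d (23.8 and 24.5 against 27.4 and 26.0 CPM, -0.15) and Eif4enif1, which carries the cap-binding protein eIF4E into the nucleus (143 and 148 against 150 and 168 CPM, -0.13). Only Eif6, which keeps the large ribosomal subunit from joining too early, lay above control in both HuD libraries (156 and 172 against 148 and 153 CPM, log2 change 0.12, SE 0.11). Without the polysomal control replicate 2 the changes were -0.073 for Eif2b3, -0.034 for Eif3e, -0.039 for Eif4enif1 and -0.081 for Eif2ak4, and without the polysomal HuD replicate 2 that of Eif6 was 0.049. The smallest adjusted p among the 50 was 0.969.

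**Figure D5:**
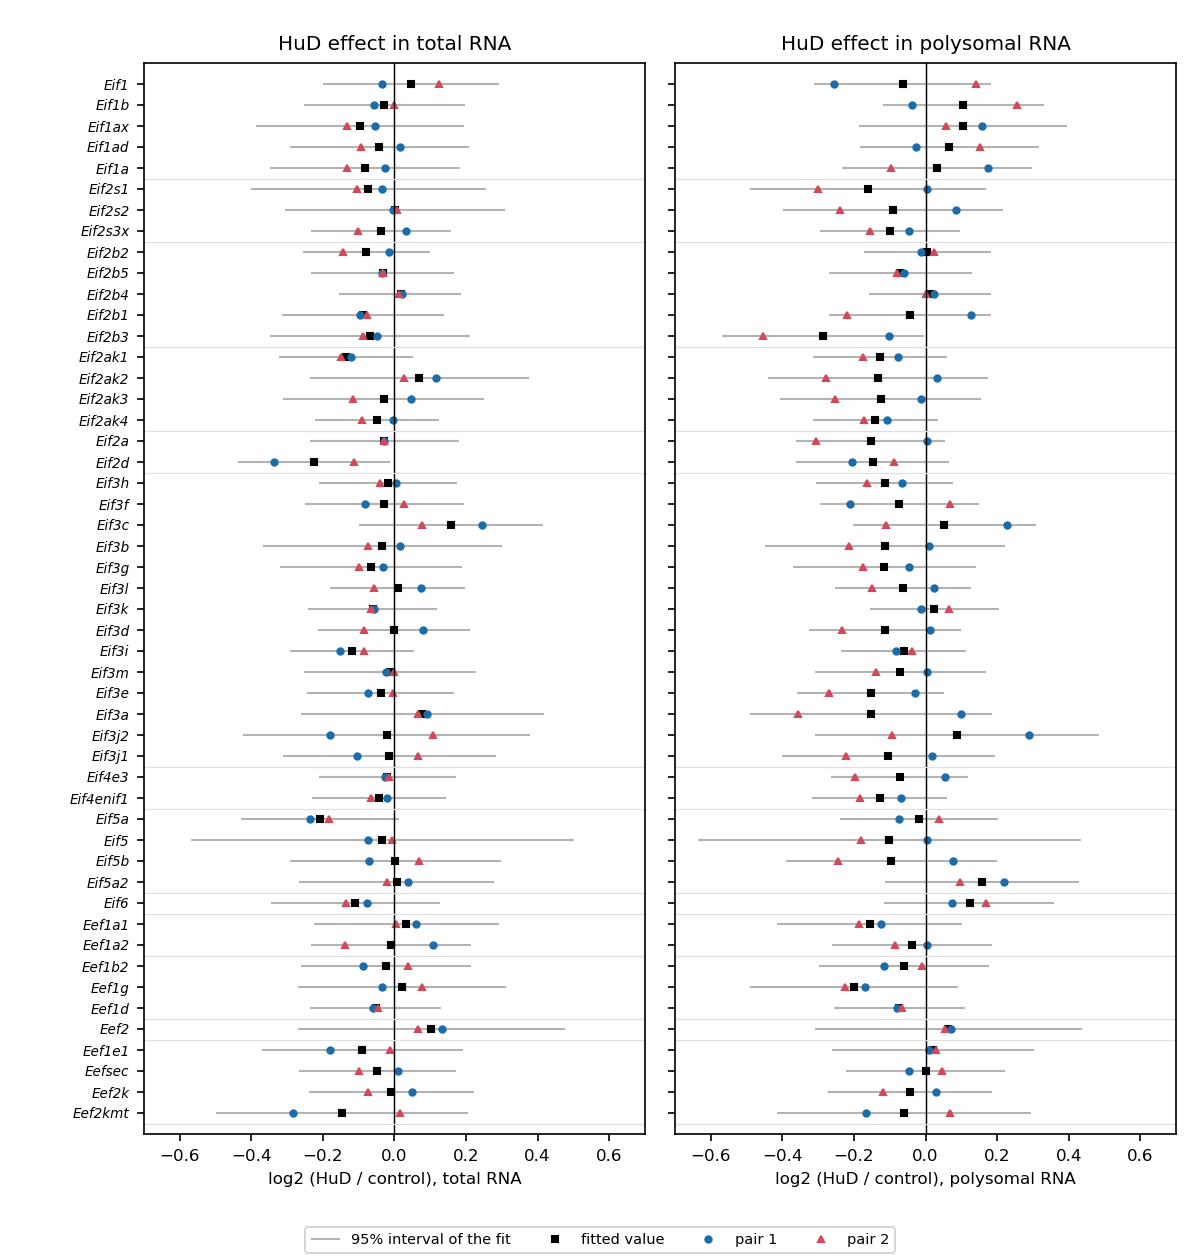
Log2 change with HuD in total RNA (left) and polysomal RNA (right) for the 50 mRNAs in the order of their roles, with the fitted value (squares), its 95% interval (lines) and the change within pair 1 (circles) and pair 2 (triangles). In polysomal RNA the triangles lie to the left of the circles for most genes, with medians of -0.13 in pair 2 and -0.01 in pair 1.

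Here too the value depended on the polysomal control replicate 2. The median change of the 50 genes was -0.01 in pair 1 and -0.13 in pair 2, and -0.01 when that library was left out. Without the polysomal control replicate 1 the median was -0.13, 15 genes were lower and 1 was higher at an unadjusted p under 0.05, where 21.9% of all 14924 genes in that fit had one (1638 lower and 1624 higher). In the same fit Eif2b3 (adjusted p = 0.0402) and Eif3a (adjusted p = 0.0428) passed in edgeR among 372 genes in all (2.49%). With both control libraries in the fit no polysomal difference of the 50 genes passed.

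Translation efficiency (TE), the ratio of polysomal to total RNA, was compared between HuD and control cells by the interaction of fraction and condition in one model. No gene of the 50 and no gene of all 14906 (0.0%) passed at an adjusted p under 0.05 in edgeR, and DESeq2 gave 0 as well. At an unadjusted p under 0.05, 0 of the 50 were higher (0.409% of all genes) and 0 were lower (0.57%), also by DESeq2. The log2 changes in TE ran from -0.23 to 0.23, with a median of -0.05 against -0.01 for all genes, and the outermost bounds of the 95% intervals were -0.83 and 0.69. The TE ratios of the same-numbered libraries did not overlap for 10 genes in the higher direction (18.6% of all genes) and 11 in the lower one (20.0%), shares of the 50 genes that were close to those of all genes.

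Eif6 had the smallest p. Its log2 ratio of polysomal to total RNA was 0.22 and 0.19 with HuD and 0.07 and -0.12 without (log2 change in TE 0.23, SE 0.15, edgeR adjusted p = 1.00). For Eif5a the ratios were 0.25 and 0.18 with HuD and 0.09 and -0.04 without (0.19, SE 0.14), and for Eif1ax 0.45 and 0.34 against 0.24 and 0.15 (0.20, SE 0.18). In these 3 the HuD pairs lay above the control pairs, as they did in Eif5a2 (0.15), the paralog of Eif5a, and Eif3k (0.09). Eef1a1 lay below control in both pairs, with log2 ratios of -0.33 and -0.25 with HuD and -0.15 and -0.06 without (log2 change in TE -0.19, SE 0.16, edgeR adjusted p = 1.00). Eif2b3 (-0.22), Eif2ak2 (-0.20), Eif3d (-0.11) and Eif2ak4 (-0.09) were also lower without overlap. Without the polysomal control replicate 2, Eif2ak2 turned to 0.03, Eif2b3, Eif3d and Eif2ak4 had -0.007, -0.008 and -0.036, Eif3k had 0.036, and the median of the 50 genes turned from -0.05 to 0.04. Without the total RNA HuD replicate 2 that median was 0.004. Without the total RNA control replicate 2 the changes were 0.112 for Eif6, 0.042 for Eif1ax and 0.035 for Eif5a2, without the total RNA HuD replicate 1 they were 0.148, 0.093 and 0.073, and without the polysomal control replicate 1 Eif1ax had 0.097 and Eif5a2 0.034. All 8 TOP mRNAs had a negative fitted log2 change in TE, from -0.22 to -0.02 with a median of -0.07, as had 7714 of all 14906 genes. In single pairs Eif3e was at 0.047 (pair 1) and Eif3f at 0.042 (pair 2). The changes nearest to zero were smaller than their SE, such as Eef1d (-0.02, SE 0.115) and Eef2 (-0.04, SE 0.234). Of the 42 genes outside the TOP list 25 were negative, with a median of -0.04. None of either group passed at an unadjusted p under 0.05, and the difference between the groups was not tested.

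The genes with a HuD window were then set beside the others. The 8 had median log2 changes of -0.04 in total RNA, -0.08 in polysomal RNA and -0.07 in TE, and the 42 unbound genes had medians of -0.03, -0.07 and -0.04. In polysomal RNA 3 of the 8 lay below control without overlap and 0 above, and 7 of the 42 below and 1 above (14.6% and 14.1% of all genes). In total RNA 1 of the 8 lay below and 0 above, and 11 of the 42 below and 2 above (16.7% and 15.1% of all genes). In TE 1 of the 8 lay below and 2 above, and 10 of the 42 below and 8 above (20.0% and 18.6% of all genes). None of the 8 passed at an unadjusted p under 0.05 in any of the 3 comparisons, which share their libraries. Eef1a1 had most of the summed CRAC coverage. In total RNA it had 6514 and 6154 CPM with HuD and 6248 and 6134 without (log2 change 0.03, 95% interval -0.23 to 0.29). In polysomes it had 5167 and 5163 against 5635 and 5875 CPM (-0.16, -0.42 to 0.10). Its libraries overlapped in total RNA and did not in polysomal RNA, where both HuD libraries were lower. Eif2s3x had 79.1 and 81.5 against 77.4 and 87.5 CPM in total RNA (-0.04, -0.23 to 0.16) and 88.4 and 87.5 against 91.2 and 97.3 in polysomes (-0.10, -0.30 to 0.10). Eif5 differed most between replicates of total RNA, with 168 and 247 CPM in total RNA with HuD and 177 and 248 without, and its change in TE had the widest interval, -0.83 to 0.69. The Eif1 and Eif1b pair of paralogs had log2 changes in TE of -0.11 and 0.13, and the Eif1a and Eif1ax pair 0.12 and 0.20, none past the test.

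The 3′ end libraries gave a further measure of mRNA amount, since reads starting within 10 nt of a listed polyadenylation site had been counted. Of the 50 genes, 40 were in this table and 10 were not. Several abundant mRNAs had few counts there, such as Eef1g with 78 to 111 and Eif3e with 52 to 81, and 9 of the 40 had fewer than 100 counts in every library. No gene of the 40 passed at an adjusted p under 0.05 in edgeR without pairing, against 0.052% of all 9621 genes. With the replicate numbers as a block none passed either, against 2.26% of all genes. DESeq2 called none of them and 35 genes in all. At an unadjusted p under 0.05 without pairing, 0 were higher (2.87% of all genes) and 1 was lower (3.0%), and DESeq2 gave 0 in each direction. The median log2 change of the 40 was -0.06, against 0.00 for all genes.

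Eef2k, the kinase that stops eEF2, had 1.26, 1.85 and 1.86 CPM with HuD and 2.59, 2.83 and 2.67 without (log2 change -0.69, SE 0.25, n = 3 per group, edgeR adjusted p = 0.77), from only 17 to 42 counts per library. Eif5 had 4.90, 5.42 and 5.91 CPM with HuD and 7.002, 8.29 and 6.54 without (log2 change -0.42, SE 0.19, edgeR adjusted p = 0.87), from 66 to 114 counts at the site beside its HuD window. In both genes the HuD libraries lay below the control libraries. Eif1b had 27.7, 35.5 and 29.8 CPM against 20.6, 29.8 and 22.9 (0.35, SE 0.18, edgeR adjusted p = 0.882), with overlap between the groups and a higher value with HuD in each same-numbered pair. The replicate numbers were taken to pair these libraries, which no label states. In the edgeR fit with a replicate block Eif1b (log2 change 0.35, adjusted p = 0.0928), Eef2k (-0.70, adjusted p = 0.148), Eif5 (-0.42, adjusted p = 0.203) and Eif3l (-0.18, adjusted p = 0.261) had an unadjusted p under 0.05. That made 1 gene higher (8.64% of all genes) and 3 lower (10.1%), while 217 of all genes (2.26%) passed after adjustment. In total RNA the same genes showed log2 changes of -0.03 (Eif1b), -0.01 (Eef2k), -0.03 (Eif5) and 0.01 (Eif3l).

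Several 3′ ends were listed for 11 genes, but in 7 of them neighbouring ends lay within 20 nt of each other and shared reads, so use of ends far enough apart to be told apart could be compared for 4 genes (Eif1, Eif2a, Eif2s2 and Eif6). None of the 11 passed at an adjusted p under 0.05 (0.0301% of 3317 genes did) or at an unadjusted p under 0.05 (0.151% did) in edgeR's diffSpliceDGE with the Simes method. With ends within 20 nt merged, none of the 4 had an unadjusted p under 0.05 either (0.488% of 1434 genes did). The smallest p belonged to Eif2s2, the beta subunit of eIF2, to Eif6 and to Eif1, each with an adjusted p of 1.00 in edgeR. In Eif2s2 the main of 4 ends held 89.8, 87.2 and 85.4% of counts in control cells and 89.9, 87.3 and 91.1% with HuD. The groups overlapped, and the share was higher with HuD in each same-numbered pair. In Eif6 an end about 5 kb upstream held 1.46, 1.44 and 1.85% in control cells and 1.77, 2.22 and 2.52% with HuD, also with overlap and higher in each pair. The other 2 ends of Eif6 lay so close together that they shared reads. In Eif1 the end nearer to the stop codon held 70.4, 67.6 and 68.7% in control cells and 68.6, 65.5 and 68.6% with HuD, with overlap and lower in each pair. The HuD window of Eif1 lay 45 nt before this nearer end, so both mRNA forms contain it.

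Genes of neighbouring steps were looked at in the same fits. For termination and ribosome recycling (Etf1, Gspt1, Gspt2, Abce1, Pelo, Hbs1l), 0 of 6 passed at an unadjusted p under 0.05 in total RNA, polysomal RNA or TE, with median log2 changes with HuD of -0.02, -0.07 and -0.12. For the cofactors of scanning and start codon choice (Ddx3x, Dhx29, Denr, Mcts1, Mcts2, Bzw1, Bzw2, Abcf1), 0 of 8 did, with medians of -0.03, -0.11 and -0.04. For the enzymes that make the diphthamide of eEF2 and the hypusine of eIF5A (Dph1, Dph2, Dph3, Dph5, Dph6, Dph7, Dhps, Dohh), 0 of 8 did, with medians of -0.02, 0.02 and 0.00. For the mitochondrial factors (Mtif2, Mtif3, Tufm, Tsfm, Gfm1, Gfm2, Mrrf, Mtrf1, Mtrf1l), 1 of 9 was higher in total RNA at an unadjusted p under 0.05 (Gfm2, which acts in mitochondrial ribosome recycling, log2 change 0.24, adjusted p = 1.00 in edgeR, named after its value was seen) and none in polysomal RNA or TE, with medians of 0.00, -0.06 and -0.09. None of these genes passed at an adjusted p under 0.05 in edgeR.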

How the data were processed

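Counts per gene had been deposited by the authors for RNA-Seq and POL-Seq (STAR 2.5.3a, GRCm38.p4, Gencode M6) and counts of reads starting within 10 nt of listed 3′ ends for the 3′ end libraries. For CRAC the authors aligned reads with TopHat2 2.0.14, guided by a transcript annotation, collapsed PCR duplicates, pooled the replicates and deposited, per window, the coverage (signal), the reads with a deletion, a combined p-value and a matrix score, and programs ran with default settings unless stated. Whether counting used strand is not stated.

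Counts were analysed with edgeR 4.0.16 (TMM, filterByExpr, quasi-likelihood test, Benjamini-Hochberg over all genes) in R 4.3.3, with DESeq2 1.42.0 as an alternative, and CPM and FPKM were scaled by TMM factors. FPKM used merged exon lengths of GENCODE M21. SE is the log2 change divided by the square root of F. Precision rests on 2 or 3 libraries per group, which the methods call biological replicates. The spread behind the p-values was estimated in one model over all 8 RNA-Seq and POL-Seq libraries, and in another over the 3′ end libraries. A p-value in total RNA therefore also rests on the spread of the polysomal libraries, except in the single-fraction fits. Listed window coordinates were moved by a constant offset per strand, at which the motifs of all 25 windows matched the transcript, and a sequence was read for 24. Lines that repeat a window or an end under several transcripts were reduced to 1. Positions are 1-based.

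In the 3′ end libraries same-numbered samples deviated together (r = 0.4, 0.657 and 0.515 over 9621 genes), so the numbers were taken to pair them. The highest r between different numbers was 0.328, for control replicate 3 with HuD replicate 1. No label says what the numbers mark. In RNA-Seq and POL-Seq, with 2 replicates, r was 0.188 to 0.387 so same-numbered libraries were set against each other only to form ratios, and no number entered the tests as a block.

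Named genes were those with a CRAC window, the 5 with the smallest p in each direction among those without overlap in each RNA-Seq or POL-Seq comparison, the 3 highest and 3 lowest FPKM, and the 3 smallest p for 3′ end counts and usage. The members and lists were chosen with earlier results of these data known. Alternatives were other normalization, no filter, DESeq2, a replicate block, single fractions, merged ends or windows, and leaving out each library. The levels of 1 further marker list are not reported here.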

Additional observations from a re-analysis of the deposited data

How the results depend on the processing

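RNA-Seq and POL-Seq had 2 libraries per group. The 95% intervals of single genes had a median width to either side of 0.24 (log2) in total and polysomal RNA and 0.34 in TE. These widths are not adjusted for the number of genes and are not limits of detection. In total RNA, Elavl4 at 1.35 did not pass after adjustment, while Eif2d at -0.22 had an unadjusted p under 0.05 in edgeR. CRAC windows have no replicate values. Other scaling, no filter and the single-fraction fits called none of the 50 genes (40 in 3′ end counts, 11 in usage, of which 4 have ends far apart) at an adjusted p under 0.05, nor did DESeq2 or the replicate block. In total RNA the replicate block gave 2 genes lower at an unadjusted p under 0.05 in place of 1. In polysomal RNA, DESeq2 and the fit of the polysomal libraries alone gave 0 lower in place of 1. In TE the block gave 1 higher (Eif6) in place of 0. For polysomal against total RNA in control cells, DESeq2 gave 4 higher in place of 2, and the block gave 11 higher (10.7% of all genes) and 2 lower (9.92%, adjusted p of 0.148 or more in edgeR). Since 2 replicates do not establish the pairing of these libraries, the block is given here only. For 3′ end counts, DESeq2 gave 0 lower in place of 1, and the block, with pairing by number, 1 higher and 3 lower. The block changed no other call. The causes of these shifts were not tested.

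For CRAC, keeping only windows with the authors' p under 0.05 left 2 genes, 14 windows and a share of 98.8% for Eef1a1. That share, 96.4% in the report, was 78.0% by deletions, 95.2% with merged windows and 86.2% by highest windows.

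Leaving out each library in turn gave 0 to 0 genes of the 50 at an adjusted p under 0.05 in total RNA, 0 to 2 in polysomal RNA, 0 to 0 in TE, 0 to 8 for polysomal against total RNA, and 0 to 0 in 3′ end counts and usage. Genes higher at an unadjusted p under 0.05 numbered 0 to 0, 0 to 2, 0 to 1, 0 to 20 and 0 to 1 in the same 5 comparisons of amounts, and genes lower 0 to 2, 0 to 15, 0 to 4, 0 to 3 and 0 to 2. The 20 higher genes for polysomal against total RNA and the 15 lower genes in polysomal RNA came from leaving out the polysomal control replicate 1. That left 1 polysomal control library, and many genes outside the 50 also had an unadjusted p under 0.05. No conclusion about the 50 genes is therefore drawn from these counts. The medians ranged from -0.076 to 0.002 in total RNA, -0.125 to -0.007 in polysomal RNA, -0.100 to 0.037 in TE, -0.012 to 0.101 for polysomal against total RNA and -0.098 to -0.032 in 3′ end counts. For usage 0 to 0 genes had an unadjusted p under 0.05. Both ends of the ranges of medians for polysomal RNA, TE and polysomal against total RNA came from leaving out 1 of the 2 polysomal control libraries. Of the named genes, the TE change of Eif2ak2 ranged from -0.406 to 0.030, the latter without the polysomal control replicate 2. Merging 3′ ends within 20 nt changed no call. For counts, and for usage with the replicate block, it was added after seeing the data.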
